A study of Homo sapiens with 4 samples.

Results

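The surface glycoproteins that mark platelets and their precursor cells, the megakaryocytes, were followed in RNA from the human megakaryoblastic line Meg-01 after knockdown of the transcription factor GATA1. The group held 9 genes by name, ITGA2B, ITGB3, GP1BA, GP1BB, GP5, GP6, GP9, CD36 and CD9, and its members on the array were the non-control probes that carry 1 of these names. There were 13 such probes out of 41000, for 8 of the 9 genes, and each probe was kept apart. GP1BB had no probe under its name and has no value here.

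Integrin αIIbβ3, built from the products of ITGA2B and ITGB3, binds fibrinogen and von Willebrand factor and links platelets to each other. The GPIb-IX-V complex, from GP1BA, GP1BB, GP9 and GP5, catches von Willebrand factor on the vessel wall, and GP6 is a receptor for collagen. GATA1 and ETS family factors are known as activators of megakaryocyte genes, among them genes of this group.

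GATA1 5-13 and GATA1 4-14 were stable clones of Meg-01 made with a GATA1 shRNA lentivirus, and each was a single colony grown up from the infected cells. GATA1 Neg, the control, was not cloned: it was Meg-01 cells kept together after infection with a non-targeting shRNA virus, so the clones and the control differed in clonality as well as in the shRNA. Each of 4 two-colour Agilent arrays compared 1 clone with GATA1 Neg, with the clone in red on array 1 of each clone and in green on array 2. The labels give Meg-01 as the source, although their extraction text names clones of CMK, another megakaryoblastic line.

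From the deposited spot intensities, log2 ratios of knockdown over GATA1 Neg were computed, and a negative value is a lower signal in the clone. Each clone entered as the average of its 2 arrays, which gives n = 2 clones, and the mean of these was tested against 0 with limma over 40974 probes. All 4 arrays carried the GATA1 Neg RNA, so its own variation does not enter the test. The p-values rest on the spread between the 2 clones, which limma moderates with the spread over all probes. A probe was above background when Feature Extraction, the program that read the arrays, called more than 50% of its spots well above background, and levels are normalized intensities in arbitrary units. All arrays had 0 saturated spots, between 135 and 152 of 43376 spots marked as outliers, and between 61.6% and 66.4% of spots well above background in either channel. GATA1 itself, read by 1 probe, had log2 ratios of -0.21 and -0.34 in GATA1 5-13 and of -0.43 and -0.58 in GATA1 4-14. On that probe 82.7% and 70.6% of the GATA1 Neg level were left. The study assessed the knockdown by real-time RT-PCR and Western blotting. It reported decreased GATA1 transcripts in both clones, and a fall of the protein that was larger than the fall on this probe.

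Promoter sequences were at hand for 7 of the 9 genes in a RefSeq table of GRCh38.p14, and 4 are shown because their genes had measurable signal and differ in their GATA matches. Each line gives the 250 bases before a transcription start, 5′ to 3′ on the strand of the gene, and capitals mark a GATA core on either strand, spelled AGATAA or, with the last letter changed, AGATAG, and likewise with the first letter changed, TGATAA and, with both, TGATAG.
ITGA2B, minus strand, chr17:44389650-44389899: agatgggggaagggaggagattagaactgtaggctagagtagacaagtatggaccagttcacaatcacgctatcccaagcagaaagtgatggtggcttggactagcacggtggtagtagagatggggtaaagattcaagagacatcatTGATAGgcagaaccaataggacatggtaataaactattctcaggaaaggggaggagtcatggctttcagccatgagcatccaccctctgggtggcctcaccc
GP9, plus strand, chr3:129060529-129060778: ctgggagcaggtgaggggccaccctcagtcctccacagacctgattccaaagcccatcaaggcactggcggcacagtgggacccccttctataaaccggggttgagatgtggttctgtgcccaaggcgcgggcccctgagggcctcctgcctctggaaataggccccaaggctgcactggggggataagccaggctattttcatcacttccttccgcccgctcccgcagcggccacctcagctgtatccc
GP6, minus strand, chr19:55038265-55038514: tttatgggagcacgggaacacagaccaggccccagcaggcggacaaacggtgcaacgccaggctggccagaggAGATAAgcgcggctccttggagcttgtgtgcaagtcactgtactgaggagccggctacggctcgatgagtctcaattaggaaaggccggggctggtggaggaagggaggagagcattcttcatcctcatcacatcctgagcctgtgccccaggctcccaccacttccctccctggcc
CD36, plus strand, 1 of 6 starts, chr7:80646196-80646445: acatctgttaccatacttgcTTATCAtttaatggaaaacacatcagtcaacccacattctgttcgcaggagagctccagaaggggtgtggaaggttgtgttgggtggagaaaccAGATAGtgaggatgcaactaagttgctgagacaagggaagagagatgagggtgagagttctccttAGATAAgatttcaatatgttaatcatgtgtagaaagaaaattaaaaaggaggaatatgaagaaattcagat
The ITGA2B window held 1 GATA spelling, 102 to 97 bases before the start, where position -1 is the base next to it. GP6 also held 1, 177 to 172 bases before its start. GP9 held 0, although its window has ggataa, which begins with g and was not among the spellings searched. CD36 has 6 starts in the table, and their windows held 0, 0, 0, 0, 2 and 3 GATA spellings; the last 2 windows overlap and share 1 of them. Across the group, 8 of 15 windows, from 6 of 7 genes, held a GATA spelling, against 22.3% of all 35116 promoter windows of that length. The ETS core GGAAG, searched on both strands, stood in 12 of the 15 windows and in 65.1% of all windows, and it overlapped no GATA spelling in the group. These matches describe the letters in the windows and are not binding sites.

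No glycoprotein probe passed the adjusted test, and the group did not move as a block. Both ITGA2B probes and the GP6 probe had lower signals on 4 of 4 arrays, the 1 GP1BA probe with signal, whose target is uncertain, was much lower in GATA1 5-13 than in GATA1 Neg and only slightly lower in GATA1 4-14, and CD36 had opposite signs in the clones. Of the 13 probes, 0 were called at an adjusted p under 0.05, where the share of all probes called was 0%. At the unadjusted p of at most 0.005, 0 were lower and 0 higher, beside 0.574% lower and 0.327% higher of all probes tested. At an unadjusted p under 0.05 there were 2, the ITGA2B probes, both lower, which is 2 of 13 beside 7.43% of all probes called in either direction and 4.05% called as lower; among probes above background the shares were 11% and 6.05%.

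Signal was above background in 11 of the 13 probes, beside 24751 of 40974 probes in all. Lower on all 4 arrays were 4 probes of 3 genes, against 13.4% of all probes and 17.3% of those above background, and higher on all 4 were 0, against 12.8% and 15.8%. The median log2 ratio over the 13 probes was -0.11 for the mean of both clones, with -0.12 in GATA1 5-13 and -0.10 in GATA1 4-14, beside a median of -0.00023 over all probes tested. In bulk RNA, fewer cells that express a gene and less of its RNA per cell cannot be told apart.

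**Figure D1:**
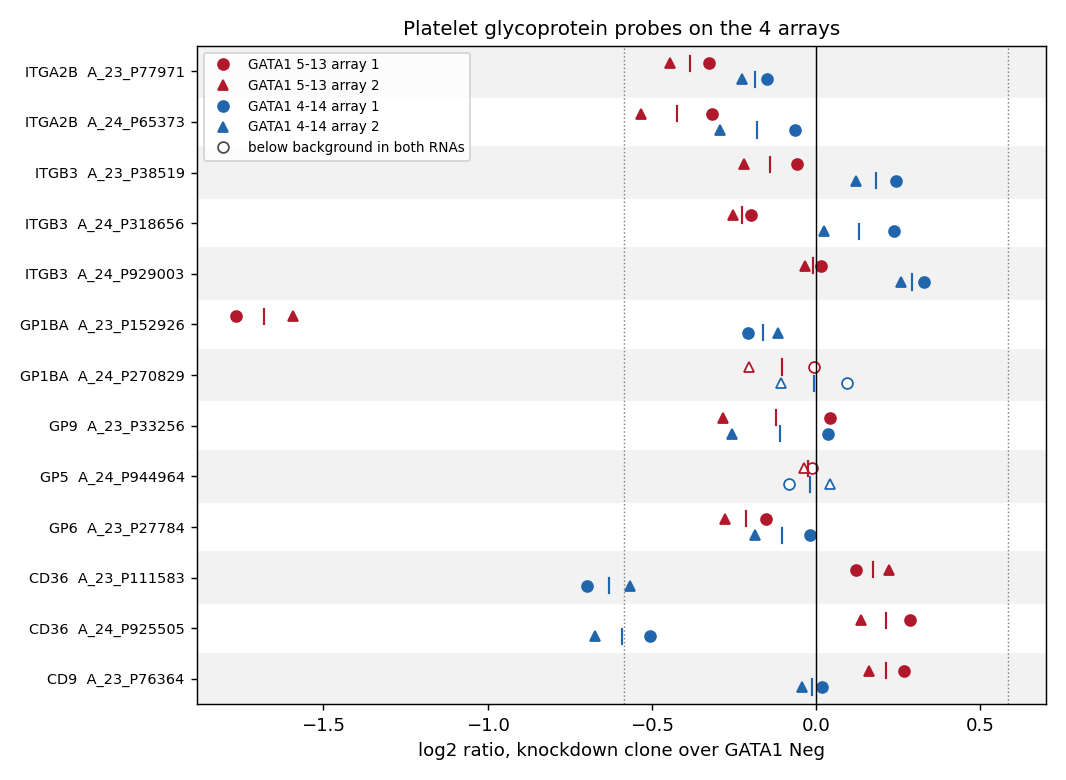
Log2 ratio of knockdown over GATA1 Neg (x axis) for each of the 13 glycoprotein probes (y axis), with circles for array 1 and triangles for array 2 of a clone, vertical ticks for the mean of its 2 arrays, open symbols for probes below background in both RNAs, and dotted lines at 1.5-fold. The 2 ITGA2B probes and the GP6 probe lie to the left of 0 on all 4 arrays, GP1BA in GATA1 5-13 lies far from the rest at -1.77 and -1.59, and the clones lie on opposite sides of 0 for CD36.

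ITGA2B, the αIIb chain and a standard surface marker of the lineage as CD41, was measured by 2 probes with bright signals. On probe A_23_P77971 the log2 ratios were -0.32 and -0.44 on the arrays of GATA1 5-13 and -0.15 and -0.22 on those of GATA1 4-14. The GATA1 Neg level on this probe lay between 10985 and 11685 on the 4 arrays, while the levels were 8775 and 8519 in GATA1 5-13 and 10210 and 10004 in GATA1 4-14. Each clone lay below the control level of its own array, and below the whole range of the control. That range comes from repeat readings of the GATA1 Neg RNA, and the share of all probes outside it was not counted.

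On the second ITGA2B probe, A_24_P65373, the log2 ratios were -0.32 and -0.53 in GATA1 5-13 and -0.06 and -0.29 in GATA1 4-14. The levels on it were 2745 and 2566 in GATA1 5-13 and 3144 and 3013 in GATA1 4-14, with 3284 to 3707 in GATA1 Neg. The probes thus gave like sizes, with 76.6% and 74.5% of the control level left in GATA1 5-13 and 87.9% and 88.4% in GATA1 4-14. Their mean log2 ratios were -0.29 ± 0.14 and -0.30 ± 0.17 (SD, n = 2 clones), with limma's unadjusted p at 0.034 and 0.041 and the adjusted p at 0.65 and 0.66. Neither probe passed the adjusted test, and the change was under 1.5-fold on every array. In the files these probes sit on chromosome 17 of hg18, A_24_P65373 over 60 bases from 39808816 to 39808875 and A_23_P77971 from 39805268 to 39807257, which is a stretch of 1990 bases and not 1 unbroken target; no exon or UTR annotation of hg18 was used here.

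**Figure D2:**
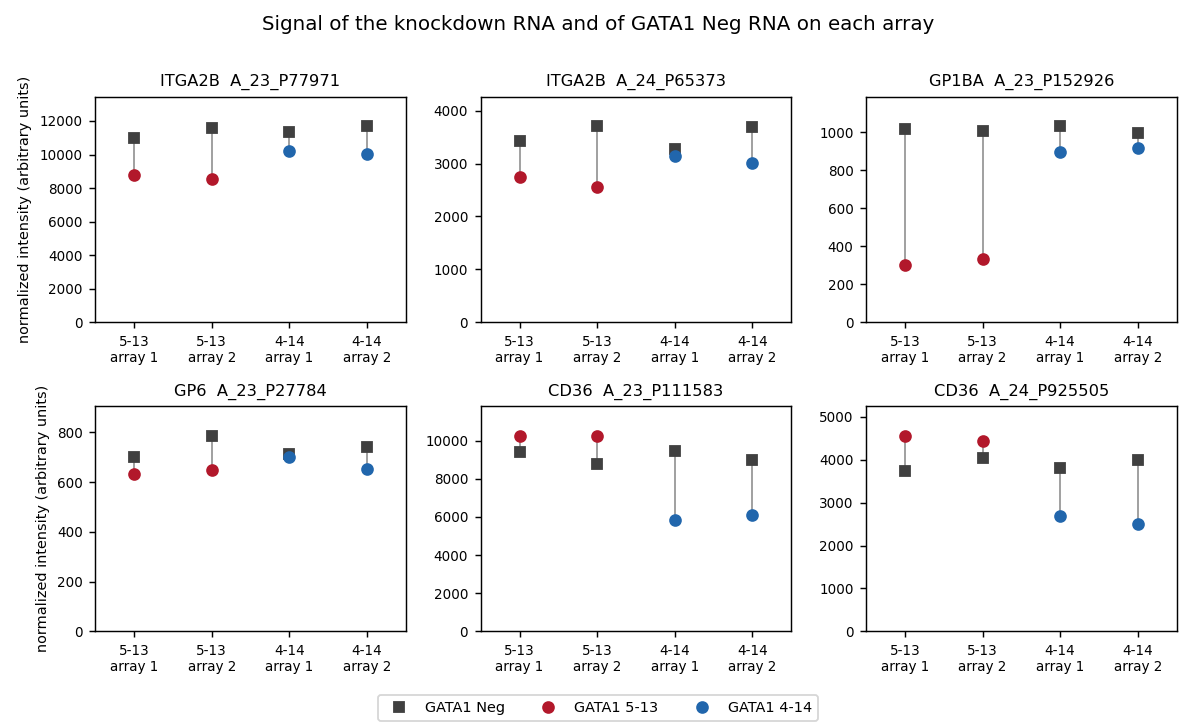
Normalized intensity in arbitrary units (y axis, from 0) of the clone (circles) and of GATA1 Neg (squares) on each of the 4 arrays (x axis) for 6 probes of ITGA2B, GP1BA, GP6 and CD36, with a line joining the values of an array. The GP1BA signal of GATA1 5-13 lies at 299 and 334 while every other value on that probe lies at 895 or above, and for CD36 the circles are above the squares in GATA1 5-13 and below them in GATA1 4-14.

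ITGB3, the β3 chain that pairs with αIIb, was close to background and differed from ITGA2B in its pattern. Probe A_23_P38519, printed as 10 spots, had log2 ratios of -0.06 and -0.22 in GATA1 5-13 and of 0.25 and 0.12 in GATA1 4-14. Probe A_24_P318656 gave -0.20 and -0.25 in GATA1 5-13 and 0.24 and 0.02 in GATA1 4-14. Both had negative values on the 2 arrays of GATA1 5-13 and positive values on the 2 arrays of GATA1 4-14, a pattern shared by 7.87% of all probes tested and 9.44% of those above background. The third probe, A_24_P929003, designed on an alternatively spliced partial mRNA, had 0.01 and -0.03 in GATA1 5-13 and 0.33 and 0.26 in GATA1 4-14, so that it was near 0 in the first clone and positive in the second.

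The ITGB3 means over both clones were 0.02 ± 0.23, -0.05 ± 0.25 and 0.14 ± 0.21 (SD, n = 2 clones), with adjusted p-values of 0.97, 0.94 and 0.77 from limma. The GATA1 Neg level was between 131 and 140 on A_23_P38519, where the lowest signal of GATA1 Neg RNA called well above background on an array was 87.4 to 106, so that all of these are dim values. Knockdown RNA was called well above background on 1 of 2 arrays of GATA1 5-13 for A_23_P38519 and on both arrays of either clone for the other ITGB3 probes. The added offset of 50 makes ratios of such dim probes smaller, and with Feature Extraction's own ratios A_23_P38519 stood at -0.29 in GATA1 5-13 and 0.38 in GATA1 4-14.

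The 10 spots of A_23_P38519 show the error within an array. In GATA1 5-13, 7 of 9 spots were lower on array 1 and 10 of 10 on array 2. In GATA1 4-14, 10 of 10 were higher on array 1 and 6 of 6 on array 2, after 4 outlier spots were dropped. The SD between spots was 0.095 and 0.076 on the arrays of GATA1 5-13 and 0.076 and 0.056 on those of GATA1 4-14, beside medians of 0.038 to 0.045 over the 264 probes printed 10 times. Spots share the RNA of their array and are not replicates of a clone, so the difference between the clones, -0.32 on the log2 scale, was not tested.

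**Figure D3:**
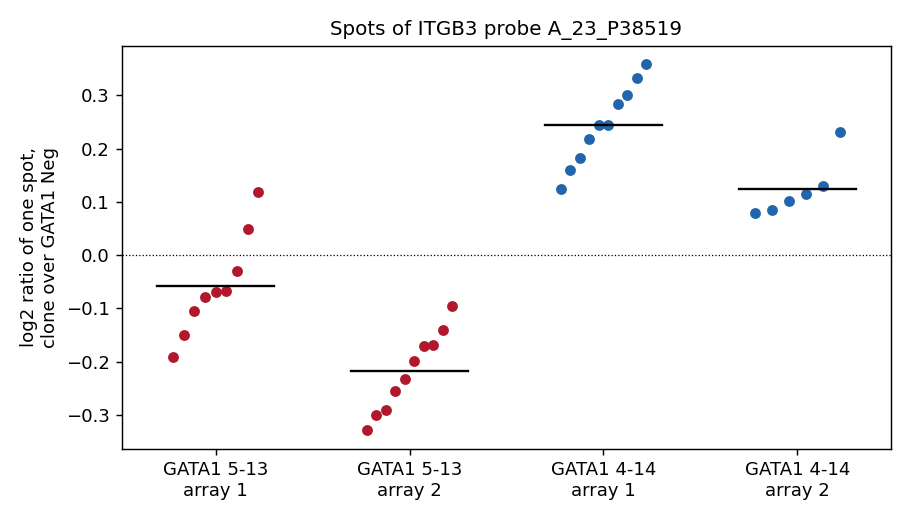
Log2 ratio of single spots of the ITGB3 probe A_23_P38519 (y axis) on each array (x axis), sorted by value within an array, with a black line at their mean and a dotted line at 0. All spots of GATA1 4-14 shown lie above 0, and those of GATA1 5-13 lie below it except 2 on array 1.

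GP1BA encodes the chain of the GPIb-IX-V complex that holds the binding site for von Willebrand factor. On probe A_23_P152926 the log2 ratios were -1.77 and -1.59 in GATA1 5-13 and -0.21 and -0.12 in GATA1 4-14. The levels were 299 and 334 in GATA1 5-13, 895 and 919 in GATA1 4-14, and between 997 and 1032 in GATA1 Neg. GATA1 5-13 therefore had 31.2% of the control level, a 3.20-fold lower signal, and GATA1 4-14 had 89.4%.

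GP1BA was the only member past 1.5-fold on both arrays of a clone: 1 of 13 probes in GATA1 5-13, where 2.01% of all probes and 3.30% of those above background were lower by that much, and 0 of 13 in GATA1 4-14, where 0.696% and 1.13% were. Higher by that much were 0 of 13 in both, beside 1.39% and 0.832%. The log2 ratio of GP1BA in GATA1 5-13 lay at the 0.404 percentile of the 24751 probes above background, and the gap between the clones, -1.52, was wider than in 99.4% of them. A clone is 1 sample, so neither value has a test, and the mean of both clones, -0.92 ± 1.07 (SD, n = 2), had an adjusted p of 0.71 from limma. Leaving out GATA1 5-13 brought the mean to -0.16 and leaving out GATA1 4-14 to -1.68.

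This reading of GP1BA rests on 1 probe with an unusual position. The files place A_23_P152926 on chromosome 17 of hg18 from 4778974 to 4779005, only 32 bases, and list it in descending order, while they list the other GP1BA probe, A_24_P270829, in ascending order from 4778162 to 4778221. For the 8 member probes whose gene has a strand in the RefSeq table, the order of listing followed the strand in 8 of 8. A_24_P270829 was not well above background in either RNA on any of the 4 arrays, so it gives no fold, and the 2 probes of GP1BA do not bear each other out. Which strand and transcript A_23_P152926 reads could not be checked without its sequence, so its signal may not be that of GP1BA mRNA. Among the other genes within 500 kb on that chromosome, 35 probes above background had a median of 0.05 in GATA1 5-13, from -0.45 to 0.47, so the low value was not shared by its neighbours; the window was chosen after the values were seen.

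GP9, the small chain needed for the complex to reach the cell surface, had log2 ratios of 0.04 and -0.28 in GATA1 5-13 and of 0.04 and -0.25 in GATA1 4-14. Its sign followed the dye orientation and not the clone, with positive values on both arrays that had the clone in red and negative values on both that had it in green. The clone means were -0.12 and -0.11, with an adjusted p of 0.71 from limma for their mean, -0.11 ± 0.0080 (SD, n = 2 clones), and GATA1 Neg levels of 239 to 281. This SD is far smaller than the SD between the 2 arrays of a clone, 0.23 and 0.21. GP5, which encodes glycoprotein V, was not well above background in either RNA on any array and has no fold. The complex was thus represented by 1 probe for GP9 and by 1 probe listed for GP1BA, whose target is uncertain.

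GP6, the collagen receptor of platelets, which signals through the Fc receptor γ chain, had log2 ratios of -0.15 and -0.28 in GATA1 5-13 and of -0.02 and -0.19 in GATA1 4-14. Its levels were 631 and 650 in GATA1 5-13 and 703 and 653 in GATA1 4-14, against 701 to 787 in GATA1 Neg. GATA1 5-13 lay below the range of the control, while 1 of the values of GATA1 4-14 lay inside it. All 4 arrays had a lower signal in the clone, and the mean was -0.16 ± 0.08 (SD, n = 2 clones) with limma's adjusted p at 0.69. FCER1G, the gene of that γ chain, named here after its values were seen, had -0.35 and -0.44 in GATA1 5-13 and 0.06 and -0.03 in GATA1 4-14.

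CD36, a scavenger receptor for thrombospondin, oxidized lipoproteins and fatty acids, had opposite signs in the clones on both of its probes. On A_23_P111583 the log2 ratios were 0.12 and 0.22 in GATA1 5-13 and -0.70 and -0.57 in GATA1 4-14. The levels on this probe were 10251 and 10269 in GATA1 5-13 and 5848 and 6088 in GATA1 4-14, with 8793 to 9483 in GATA1 Neg. Here GATA1 5-13 was above every control value and GATA1 4-14 below every one. The control values are repeat readings of the GATA1 Neg RNA, and the share of all probes with such an order was not counted.

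The second CD36 probe, A_24_P925505, had log2 ratios of 0.29 and 0.14 in GATA1 5-13 and of -0.51 and -0.67 in GATA1 4-14. Its levels were 4565 and 4439 in GATA1 5-13, 2687 and 2503 in GATA1 4-14, and 3742 to 4031 in GATA1 Neg, in the same order as on the first probe. GATA1 4-14 had 64.6% and 66.5% of the control level on the 2 probes, and GATA1 5-13 had 113% and 116%. Higher on both arrays of GATA1 5-13 and lower on both of GATA1 4-14 were 2 of 13 glycoprotein probes, both of CD36, and 8.03% of all probes or 9.29% of those above background. The clones differed by 0.80 on either probe, more than 96.9% and 96.8% of the probes above background. This difference was not tested, since a clone is 1 sample, and the means over both clones, -0.23 ± 0.57 and -0.19 ± 0.57 (SD, n = 2), had adjusted p-values of 0.84 and 0.88 from limma.

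Just short of 1.5-fold on both arrays were the CD36 probes in GATA1 4-14. A_23_P111583 was past it on array 1 and just under it on array 2, and A_24_P925505 was past it on array 2 only. The files place A_23_P111583 at 80140647 to 80141279 and A_24_P925505 at 80130384 to 80130443 on chromosome 7 of hg18, so they read different stretches of the gene. Within 1000 kb on that chromosome, in a window chosen after the values were seen, only 2 probes of other genes were above background, with medians of -0.47 in GATA1 5-13 and -0.36 in GATA1 4-14, negative in both clones unlike CD36.

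CD9, a tetraspanin that associates with integrins on the platelet surface, had log2 ratios of 0.27 and 0.16 in GATA1 5-13 and of 0.02 and -0.04 in GATA1 4-14. The probe was dim, with GATA1 Neg levels of 138 to 178, and the RNA of GATA1 4-14 was well above background on 1 of 2 arrays. Its mean was 0.10 ± 0.16 (SD, n = 2 clones) with an adjusted p of 0.80 from limma. Without background correction the ratio in GATA1 5-13 was 0.09, and with Feature Extraction's ratios it was 0.47, so the sign stayed and the size did not.

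Among the 24751 probes above background, the mean of both clones stood at the 6.77 and 6.21 percentile for the ITGA2B probes, at the 0.723 percentile for GP1BA and at the 17.1 percentile for GP6. GP9 stood at the 23.8 percentile and CD36 at the 9.83 and 13.6 percentile, although only 1 clone was below the control for CD36. CD9, at the 77.3 percentile, and the ITGB3 probes, at 38.6, 58.5 and 84.3, lay nearer to the middle or above it. These ranks describe the probes and are no test.

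**Figure D4:**
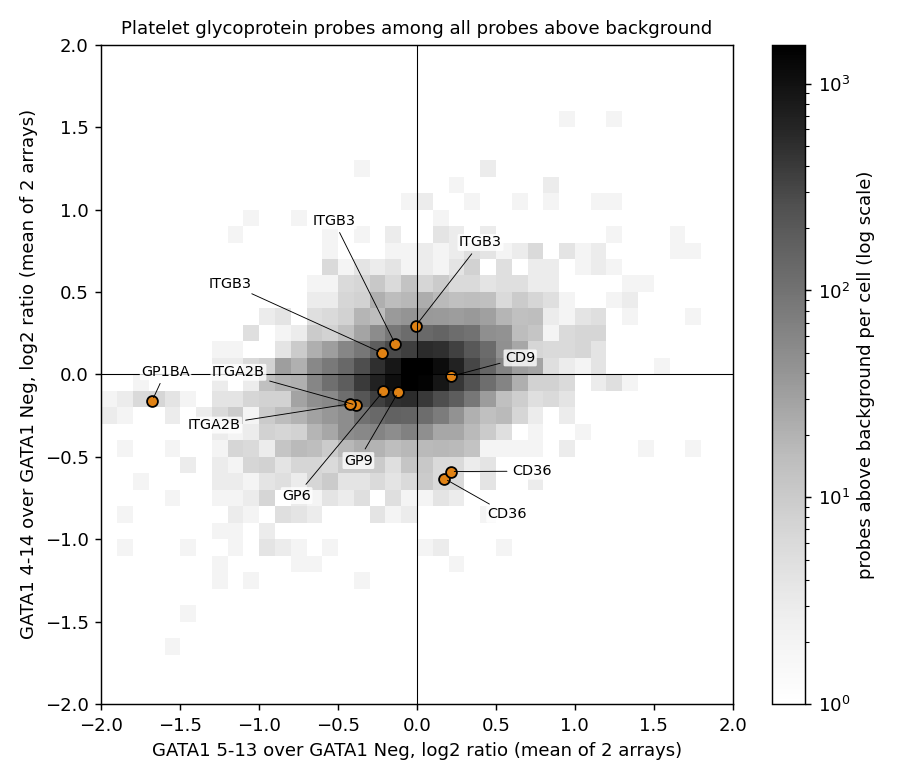
Mean log2 ratio of 2 arrays in GATA1 5-13 (x axis) against that in GATA1 4-14 (y axis), with the 11 glycoprotein probes above background as labelled points over a grey grid that counts all probes above background on a log scale; 24649 probes fall inside the axes and 102 outside. Both axes share the GATA1 Neg RNA, so the slope of the cloud is not read here. GP1BA lies at the left edge and the CD36 probes lie below the cloud at 0.17 and 0.21 on the x axis.

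**Figure D5:**
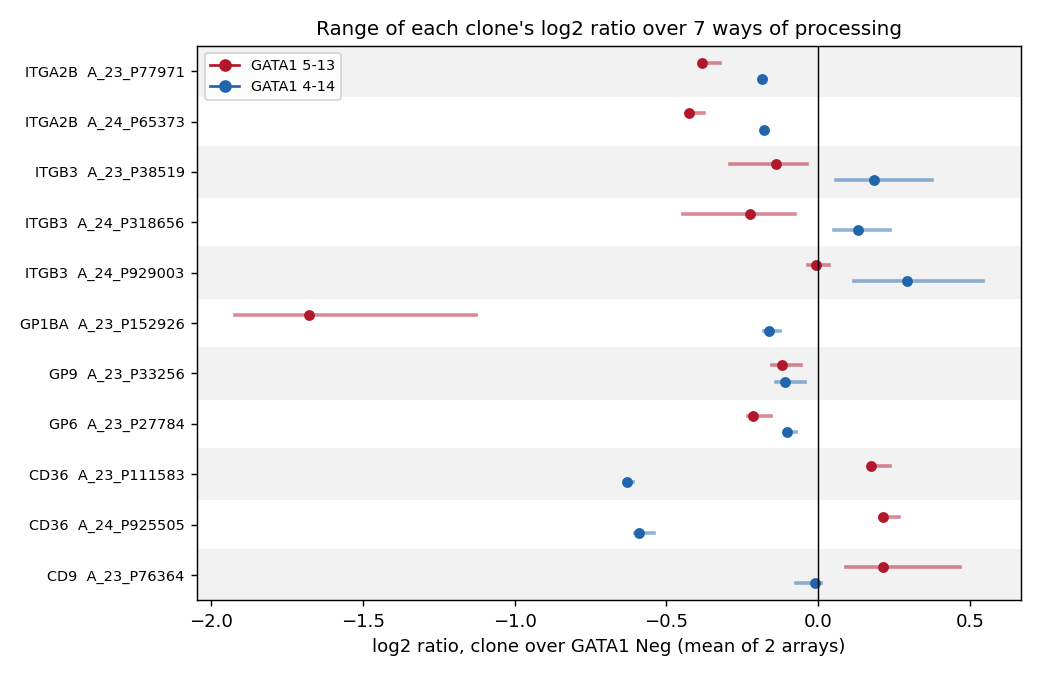
Log2 ratio of each clone over GATA1 Neg (x axis) for the 11 probes above background (y axis), with a point for the value given in the text and a bar from the lowest to the highest of 7 ways of processing that keep both arrays. The bars of ITGA2B and CD36 are short and keep to 1 side of 0, and the bar of GP1BA in GATA1 5-13 runs from -1.92 to -1.13.

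The plot of ranges by processing shows how far each value depended on the normalization. Over 7 ways of processing, ITGA2B probe A_23_P77971 stayed between -0.39 and -0.32 in GATA1 5-13 and between -0.19 and -0.17 in GATA1 4-14. CD36 probe A_23_P111583 stayed between 0.17 and 0.24 in GATA1 5-13 and between -0.63 and -0.61 in GATA1 4-14. For the dim ITGB3 probe A_24_P318656 the range in GATA1 5-13 was -0.45 to -0.08, so its sign stayed while its size varied. The widest range was that of GP1BA in GATA1 5-13, from -1.92 to -1.13. Signs changed for 2 of the values drawn, ITGB3 probe A_24_P929003 in GATA1 5-13 and CD9 in GATA1 4-14, both near 0.

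The genes around these receptors were taken from lists chosen with earlier results known. Of 59 probes for 32 other platelet receptors, 0 passed the adjusted test, 16 were lower on all 4 arrays and 5 higher, beside 13.4% and 12.8% of all probes. Among them CD84, an adhesion receptor of the SLAM family, had -1.40, -1.43, -0.61 and -0.63 on the 4 arrays on 1 of its probes. Another CD84 probe had -0.73, -0.89, -0.46 and -0.53. ESAM, an adhesion molecule of platelets and endothelium, had -1.09, -0.89, -1.09 and -0.94 on 1 of its own. F11R, the junctional adhesion molecule A, had 0.46, 0.55, 0.12 and 0.21 on 1 probe. Its other probe, with 0.29, 0.55, -0.0016 and 0.18, was not higher on all 4 arrays. Of 41 probes in collagen receptor signalling, 8 were lower and 10 higher on all 4 arrays, with the inhibitory receptor G6b, listed as C6orf25, at -0.75, -0.59, -0.42 and -0.29 on 1 of its probes and the adaptor GRAP2 at 0.37, 0.32, 0.35 and 0.30 on 1 of its own.

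Of 36 probes for other tetraspanins and their partners, relatives of CD9, 9 were lower and 3 higher on all 4 arrays, and CD82 had -1.55, -1.65, -0.68 and -0.72. Cytoplasmic and ligand partners of GPIb and the integrin had 2 of 38 probes lower and 1 higher on all 4 arrays. The 2 lower ones were both of TLN1, talin, which activates the integrin from inside the cell, at -0.12, -0.24, -0.08 and -0.26 on the first and -0.13, -0.24, -0.04 and -0.19 on the second. Of 38 probes for megakaryocyte transcription factors, 12 were lower on all 4 arrays and 0 higher, with a median of -0.11. The shares were 13.4% lower and 12.8% higher of all probes, and 17.3% and 15.8% of those above background. Those 12 include the probe of GATA1, the target of the shRNA, and some genes have more than 1 probe among them. None of these probes passed the adjusted test.

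The megakaryocyte label was checked against 12 defining genes. GATA1 Neg RNA was well above background on all 4 arrays for 5 of 16 probes, among them those of MMRN1, PLEK and TUBB1, and on none for 10 probes, among them those of PF4, VWF and SELP. The summed level of the list was 9230 to 9805 in GATA1 Neg, 5974 in GATA1 5-13 and 15866 in GATA1 4-14, while its probes had a median log2 ratio near 0 in either clone, 0.019 in GATA1 5-13 against 0.012 in the other. The sum rests on few bright probes, since 10 of the 16 had no signal well above background in GATA1 Neg. MMRN1, multimerin, was higher on all 4 arrays, at 0.60, 0.53, 0.84 and 0.73, with limma's unadjusted p at 0.0035 and its adjusted p at 0.52. PLEK, the platelet kinase substrate pleckstrin, named after its values were seen, had -1.23 and -1.11 in GATA1 5-13 and 0.89 and 0.91 in GATA1 4-14.

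Markers of other lineages were read in the same way, and 0 of their probes passed the adjusted test. The erythroid list had 21 of 23 probes above background, with medians of 0.25 in GATA1 5-13 and -0.19 in GATA1 4-14. Its summed level was 620182 in GATA1 5-13, 428382 in GATA1 4-14 and 329892 to 549747 in GATA1 Neg. That GATA1 Neg range is wide for repeat readings of 1 RNA. A clone's sum is the mean of 2 arrays while the range is over single arrays, so no difference is read from these sums. On all 4 arrays, 2 of the 23 erythroid probes were lower and 1 higher. CD36 is also found on erythroid precursors and monocytes. Its clone values have the same signs as those erythroid medians. The monocyte and neutrophil medians, -0.010 in GATA1 5-13 and 0.019 in GATA1 4-14, lie near 0, but most probes of that list were dim. Some of its probes with signal lay far from 0, in either direction. In GATA1 5-13 and GATA1 4-14, ITGAM had means of -1.66 and -1.38, and CEBPA probe A_24_P224727 had 0.54 and 2.15. The signs of these medians are therefore not compared with those of CD36. The monocyte and neutrophil list had 7 of 21 probes above background and a summed level of 72215 in GATA1 5-13, 66018 in GATA1 4-14 and 79695 to 83182 in GATA1 Neg. Much of that sum came from 1 CD33 probe, at 45131 to 46640 in GATA1 Neg. On all 4 arrays, 4 probes of the list were lower and 6 higher, beside 13.4% and 12.8% of all probes. Of the other lists, the endothelial one had 8 of 14 probes lower and 0 higher on all 4 arrays, the mast cell one 4 of 7 lower and 1 higher, and the lymphoid one 2 of 13 lower and 1 higher. The part of the erythroid or monocyte lineage in the CD36 values was not tested.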

How the data were processed

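Two-colour scanner output of 4 arrays was used. The authors deposited linear intensity values and a local background per spot, made by Agilent Feature Extraction, together with that program's log10 ratio after background subtraction and dye normalization and the error of that log10 ratio. The deposited table of the whole series held these log10 ratios to within 4.97e-06, signed as knockdown over control. The combination of arrays in Rosetta Resolver was not repeated here.

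Intensities were corrected with normexp (offset 50) and normalized by loess within arrays, using limma 3.58.1 in R 4.3.3 with data.table (version 1.17.8). Control spots and outlier spots had weight 0 in loess and were then left out, spots of a probe were averaged, and the sign was turned where the knockdown RNA was green. Levels came from loess followed by Aquantile. The 2 arrays of a clone were averaged, and the mean of the 2 clones was tested with limma's moderated test, two-sided, and p was adjusted by Benjamini-Hochberg over 40974 probes. The thresholds were 0.05 for the adjusted p and, beside it, the study's 0.005 for the unadjusted p. A clone alone has no test and was called past 1.5-fold on both arrays. Precision is limited by the small number of arrays, and nothing in the sources used here names separate RNA extracts for the 2 arrays of a clone.

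The members and the gene lists were chosen with earlier results of these data known. Values of 1 gene in the lists are not reported here. All member probes were named; from each list, up to 2 probes with the largest rise and up to 2 with the largest fall were picked among those of 1 sign across the 4 arrays and above background in the brighter RNA, and the text names some of these. Arrays with the same number share the dye orientation. The array 1 minus array 2 differences of the clones correlated with an r of 0.77 over 40974 probes, which are not independent. The results were recomputed without background correction, from the ratios of Feature Extraction or of the series-wide table, with median centring or Aquantile, without dim probes, with outlier spots, with an intensity trend in eBayes, from 4 separate arrays (with or without the replicate number as a block), by an error-weighted mean, and after dropping 1 array or 1 clone. Promoters were searched with exact letters, and figures were drawn with matplotlib 3.10.9.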

Additional observations from a re-analysis of the deposited data

Results flagged for a closer look

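Of the glycoprotein probes above background, 4 had every array of one clone on one side of 0 and every array of the other clone on the opposite side, and none of these differences was tested, because each clone is 1 sample and both share 1 control RNA. CD36 differed between GATA1 5-13 and GATA1 4-14 by 0.80 on the log2 scale on probe A_23_P111583 and by 0.80 on probe A_24_P925505, higher in GATA1 5-13. ITGB3 differed by -0.32 on probe A_23_P38519 and by -0.36 on probe A_24_P318656, lower in GATA1 5-13, both at dim signals. Among all probes tested, 8.03% had the pattern of CD36 and 7.87% that of ITGB3.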

How the results depend on the processing

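Of 187 recomputed values of the mean over both clones, for 11 probes, 176 kept their direction and, where they had a p-value, their side of the adjusted threshold. The values with a clone left out are those of 1 clone and have no p-value, so only their direction was compared. The exceptions past the threshold were 2 probes under an error-weighted mean of the 4 arrays with a normal p, GP1BA probe A_23_P152926 at an adjusted p of 1.73e-10 and ITGA2B probe A_24_P65373 at 0.0386; that setting called 8.62% of all probes. It gave 2 member probes called at an adjusted p under 0.05 and 2 at an unadjusted p of at most 0.005, where 0 were called by either rule in the analysis as reported. With the 4 arrays as 4 values and no replicate block, 1 member probe, ITGA2B A_23_P77971, was called at an unadjusted p of at most 0.005, beside 5.39% of all probes, and 0 at an adjusted p under 0.05. With the 4 arrays as 4 values and the replicate number as a block, which takes up the dye orientation, 0 member probes were called by either rule, the median log2 ratio of the member probes was -0.11 as before, and GP6 and GP9 came to adjusted p-values of 0.198 and 0.21.

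The median over the member probes moved from -0.11 to -0.050 without background correction, to -0.16 with Feature Extraction's log ratios and with the series-wide table, and to -0.15 with the error-weighted mean. Leaving out array 1 gave -0.19 for either clone. Leaving out array 2 gave -0.033 for GATA1 5-13 and -0.053 for GATA1 4-14. The size of the median thus followed the dye orientation of the array left out, since the dyes of that clone were then no longer balanced. Leaving out a clone gave -0.12 to -0.10. The sign of the mean of both clones turned in 9 cases, all of them with an array or a clone left out. For ITGB3, A_23_P38519 went from 0.02 to between -0.14 and 0.18, A_24_P318656 from -0.05 to between -0.22 and 0.13, and A_24_P929003 from 0.14 to between -0.0090 and 0.29. With a clone or an array left out, CD36 ranged from -0.63 to 0.17 on A_23_P111583 and from -0.59 to 0.21 on A_24_P925505, positive without GATA1 4-14, and CD9 from -0.012 to 0.21, negative without GATA1 5-13. Aquantile leaves every ratio as it was and is no separate check. The series-wide table holds Feature Extraction's ratios, so these also count as 1 check, here and among the 7 ways of processing. GP9 in GATA1 5-13 went from -0.12 to 0.04 with array 1 alone. GP1BA in GATA1 5-13 kept its sign over 7 ways of processing, between -1.92 and -1.13. The cause of these changes was not tested. Members near background, ITGB3 and CD9, are limited by their signal, and the 2 probes below background in both RNAs give no ratio.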
